A study of Drosophila melanogaster with 4 samples.

Results

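The 10 genes described here encode the main proteins of the basement membrane and the integrin receptors that bind it. They were chosen by name, as the gene rows vkg, Col4a1, LanA, LanB1, LanB2, mys, mew, if, trol and SPARC, and all 10 were found among 13931 gene rows. The basement membrane is a thin extracellular sheet on which epithelia rest. Collagen IV and laminin each form a network in it, perlecan lies between these networks, and integrins on the cell surface tie the sheet to the cytoskeleton. In the fly ovary the follicle cells secrete this sheet around each egg chamber, and it helps the egg to elongate.

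The values are small RNAs bound to Piwi, not levels of mRNA or protein. Piwi is an Argonaute protein of the nucleus, and its guides, the Piwi-interacting RNAs (piRNAs), direct it to transposons, while part of them are cut from the mRNAs of genes. The cells were OSC, a cultured line of Drosophila melanogaster that stems from somatic cells of the ovary, kept at 26 degrees. Cells of both groups received siYb, an siRNA against the Tudor-domain protein Yb, together with a plasmid that encoded Yb without its Hel-C domain in 2 libraries (Yb ΔHel-C) and wild-type Yb in the other 2 (Yb WT). Flag-tagged Piwi was purified from both groups and its RNAs of 23 to 30 nucleotides were sequenced. The comparison asks how the RNAs on Piwi differ when Yb, which gathers piRNA precursors in cytoplasmic Yb bodies, lacks Hel-C.

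The deposited table has 1 column for each group and gives RPM, reads per 1000000 reads, so every value below is the authors' value of its group and no difference has a replicate check. The columns correspond to 2803305 reads in Yb ΔHel-C and 2955141 in Yb WT, with 1 read worth 0.357 and 0.338 RPM. Intervals are exact 95% intervals that take reads as independent and cover counting error only. With 1 column per group the spread between libraries is not in them. PCR reads without molecular identifiers are not independent molecules, so the intervals may be too narrow even for counting error. Gene rows held 78.9% of the reads in Yb ΔHel-C and 64.2% in Yb WT, so ratios depend on how the columns are scaled, and each is given on the authors' totals unless another scaling is named. The median log2 fold of the 7577 genes that averaged 1 RPM or more was 0.89 on the authors' totals, 0.61 when scaled to the reads in gene rows, 0.10 with TMM and 0.054 with RLE, 2 scalings that take most rows as unchanged. Among the marker lists for cell types, the 10 genes of ovarian somatic cells summed to 8915 RPM in Yb ΔHel-C and 9378 RPM in Yb WT. Of those reads 50.3% and 74.3% lay on traffic jam (tj), at 4481 RPM in Yb ΔHel-C and 6972 RPM in Yb WT. The 9 of these genes that averaged 1 RPM or more had a median log2 fold of 0.91, near the 0.89 of all genes. The 10 germline genes summed to 92.4 and 104 RPM. Of these germline reads krimp held 192 in Yb ΔHel-C and 131 in Yb WT, and the 9 others together 67 and 177, with orb at 34 and 127 and aub at 14 and 32. The 8 blood cell genes summed to 614 and 560 RPM, mostly on crq, the 6 fat body genes to 6.06 and 10.5 RPM and the 7 muscle genes to 1055 and 1114 RPM, mostly on bt and Mef2. The germline gene rhi, the blood cell genes Hml, NimC1 and He, the fat body genes Lsp1alpha, Lsp2, Fbp1 and Fbp2 and the muscle genes up and wupA were listed at 0 in both columns, and the part of other cell types in the values below was not tested.

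The 10 genes fell into a pair of classes that lay far apart. The collagen IV genes vkg and Col4a1 and the collagen-binding protein gene SPARC had 10 reads or fewer in each column. The other 7 genes, for laminin, perlecan and the integrins, had from 253 to 2890 reads in Yb ΔHel-C and from 166 to 2012 in Yb WT. Together the 10 genes held 9541 reads in Yb ΔHel-C and 5446 in Yb WT, which is 0.431% and 0.287% of all gene reads.

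**Figure D1:**
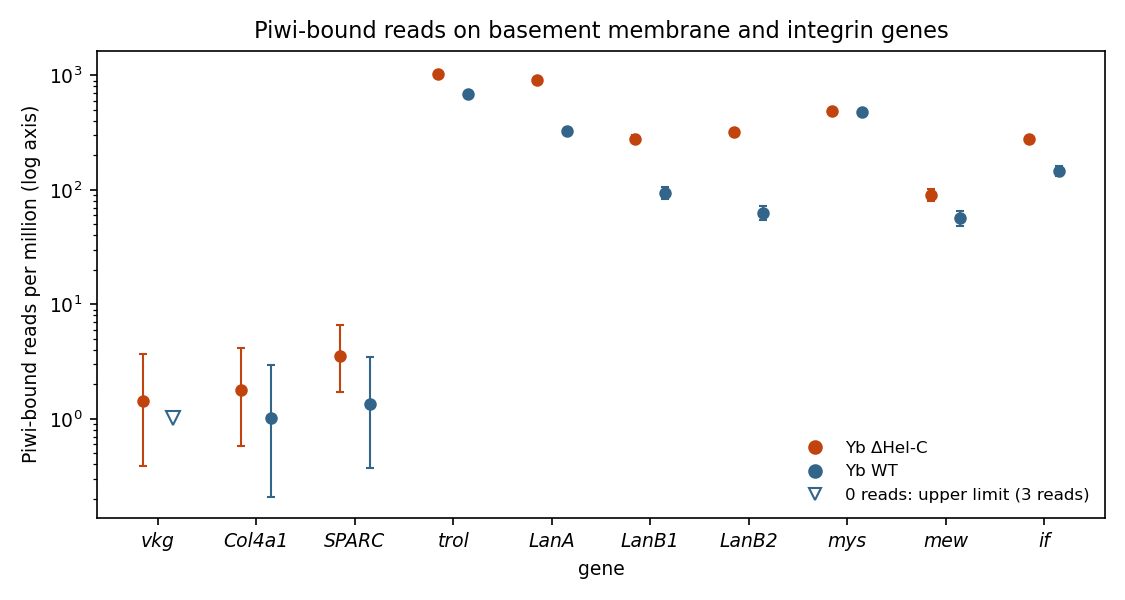
Piwi-bound reads in RPM (log axis) of the 10 genes, with Yb ΔHel-C left of Yb WT for each gene and bars for the exact 95% counting interval. An open triangle marks 3 reads, the upper limit set for 0 reads. The collagen IV genes and SPARC lie below 4 RPM in both columns and the other 7 genes above 56 RPM, and among genes with reads in both columns these lie farthest apart for LanB2, at 319 and 62.9 RPM.

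Collagen IV is a trimer built, in the fly, from the products of Col4a1 and vkg, which are neighbours on chromosome 2L. In Release 6 of the genome (dm6), vkg lies at 5012144 to 5028191 and Col4a1 at 5029609 to 5037279, with 1417 bases between them, and neither overlaps another annotated gene. Reads on vkg numbered 4 in Yb ΔHel-C (1.43 RPM) and 0 in Yb WT. For those 0 reads an upper limit of 3 reads (1.02 RPM) was set, while the exact interval of the level reached 1.25 RPM. The exact interval of the ratio reached down to 0.696 with no upper end. Col4a1 had 5 reads in Yb ΔHel-C (1.78 RPM) and 3 in Yb WT (1.02 RPM), a ratio of 1.76 (interval 0.342 to 11.3). SPARC (3R, 26869238 to 26871995), whose protein binds collagen IV and is needed for its assembly, had 10 reads in Yb ΔHel-C (3.57 RPM) and 4 in Yb WT (1.35 RPM), a ratio of 2.64 (0.760 to 11.5). None of these 3 differences was detectable at this depth. The sum over both collagen genes and SPARC was 19 reads in Yb ΔHel-C and 7 in Yb WT, 0.199% and 0.129% of the reads on the 10 genes. This sum was not set in advance. Its ratio was 2.86 (1.15 to 8.05) on the authors' totals, but the interval included 1 with gene reads (0.937 to 6.55), TMM (0.642 to 4.49) and RLE (0.620 to 4.34). In Yb ΔHel-C 51.1% of all gene rows had more reads than vkg, 49.8% more than Col4a1 and 44.9% more than SPARC. In Yb WT those shares were 63.3%, 50.7% and 48.4%.

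The laminin genes had the highest ratios of the 7 genes with many reads. Laminin is a trimer of an alpha, a beta and a gamma chain, encoded here by LanA (3L, 6203831 to 6218022), LanB1 (2L, 7811438 to 7820771) and LanB2 (3L, 9614914 to 9623980), and no other annotated gene overlaps any of them. LanB2 had 894 reads in Yb ΔHel-C (319 RPM) and 186 in Yb WT (62.9 RPM), a 5.07-fold higher level (interval 4.32 to 5.97). LanB1 had 786 reads in Yb ΔHel-C (280.4 RPM) and 276 in Yb WT (93.4 RPM), 3.00-fold higher (2.61 to 3.46). LanA had 2558 reads in Yb ΔHel-C (912 RPM) and 958 in Yb WT (324 RPM), 2.81-fold higher (2.61 to 3.03). All 3 were above 1 under each scaling used, from 2.73-fold to 5.07-fold for LanB2, from 1.62-fold to 3.00-fold for LanB1 and from 1.52-fold to 2.81-fold for LanA. Summed, they held 1512 RPM in Yb ΔHel-C and 481 RPM in Yb WT, 3.15-fold higher (2.96 to 3.34), and 1.69-fold higher with RLE, the lowest of the scalings.

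Their rank among all gene rows, which no scaling changes, also differed between the columns. Only 545 gene rows had more reads than LanB2 in Yb ΔHel-C, against 1470 in Yb WT. For LanB1 637 rows had more reads in Yb ΔHel-C and 1129 in Yb WT, and for LanA 135 and 407. All 3 laminin genes belong to the class of 1224 genes that averaged 100 to 1000 RPM. In it 7 genes had a higher log2 fold than LanB2 (2.33), 121 a higher one than LanB1 (1.58) and 148 a higher one than LanA (1.49). The median of that class was 0.57.

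Perlecan, the large heparan sulphate proteoglycan encoded by trol (X, 2470460 to 2545427), was the most abundant of the 10 rows. It had 2890 reads in Yb ΔHel-C (1031 RPM) and 2012 in Yb WT (681 RPM), 1.51-fold higher (1.43 to 1.604) on the authors' totals and 1.23-fold when scaled to gene reads, but lower with TMM (0.844-fold) and RLE (0.815-fold). Its fold lay near the middle of its class of 1224 genes, of which 590 had a higher one. A microRNA gene, mir-4955, lies within the trol span, and its reads were not analysed here.

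The integrin genes differed among themselves. An integrin is a pair of an alpha and a beta chain, and the beta chain encoded by mys (X, 8061645 to 8070237) pairs with the alpha chains encoded by mew (X, 13214409 to 13258490) and if (X, 16752189 to 16783434). The row mys had 1363 reads in Yb ΔHel-C (486 RPM) and 1410 in Yb WT (477 RPM), a ratio of 1.02 (0.945 to 1.10) that fell below 1 when scaled to gene reads (0.829), with TMM (0.568) and with RLE (0.549). The row if had 778 reads in Yb ΔHel-C (277.5 RPM) and 431 in Yb WT (146 RPM), 1.90-fold higher (1.69 to 2.15) and close to no change with TMM (1.06-fold, 0.942 to 1.20) and RLE (1.02-fold, 0.910 to 1.16). The row mew had 253 reads in Yb ΔHel-C (90.3 RPM) and 166 in Yb WT (56.2 RPM), 1.61-fold higher (1.32 to 1.97), but below 1 with TMM (0.896-fold, 0.733 to 1.10) and RLE (0.865-fold, 0.709 to 1.06). The spans of CG32639 and CG15742 overlap that of mew by 642 and 1099 bases, and reads there are uncertain, since no source used here states how the counting treated strand. CG32639 had 2 reads in Yb ΔHel-C and 13 in Yb WT, and CG15742 was listed at 0 in both.

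**Figure D2:**
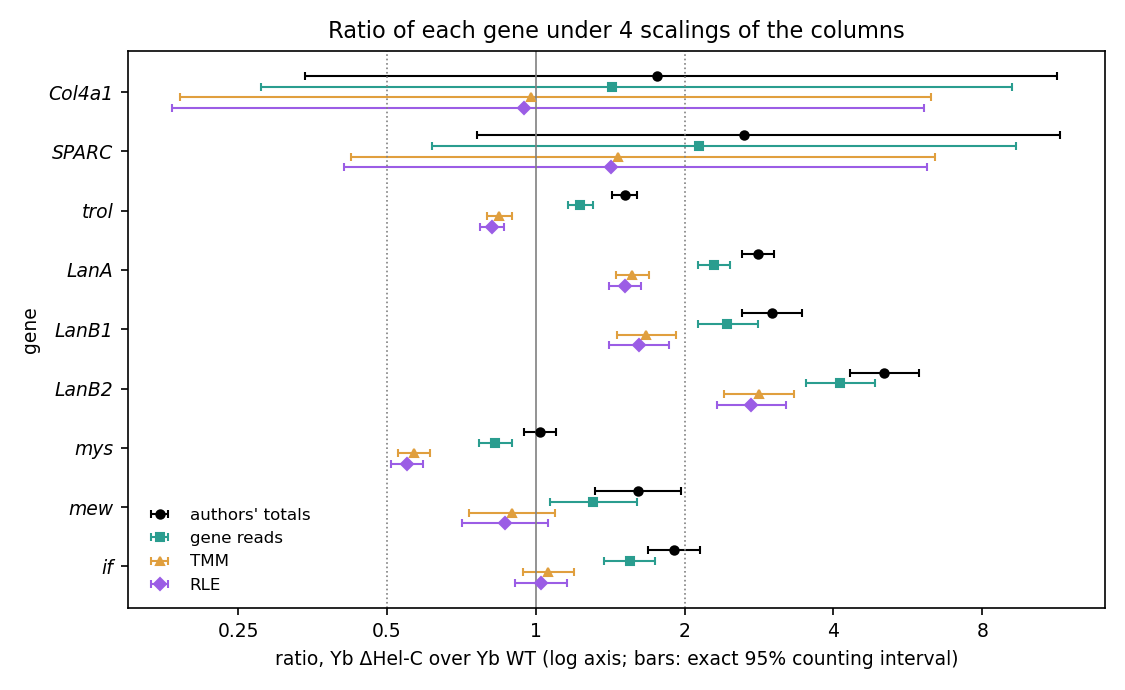
Ratio of Yb ΔHel-C over Yb WT (log axis) for the 9 genes with reads in both columns, under 4 scalings of the columns, with exact 95% counting intervals, a solid line at 1 and dotted lines at 2-fold either way. LanB2 stays above 2-fold under each scaling (lowest 2.73), while mys, at 1.02 on the authors' totals, lies below 1 under the other scalings.

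A gene was counted as past 2-fold when log2 of RPM + 0.5 differed by at least 1 and its mean over both columns was 1 RPM or more, a rule that holds no test. The pseudocount of 0.5 makes folds of rows with few reads smaller. Of the 10 genes, 9 had that mean, all but vkg. LanA, LanB1, LanB2 and SPARC were past 2-fold higher, against 44.9% of the 7577 genes, and none of the 9 was past 2-fold lower, against 4.98%. The count of 4 of 9 is therefore near the background, and that of SPARC rests on 14 reads with an interval that includes 1. SPARC was under 2-fold when scaled to gene reads (log2 fold 0.89) or with a pseudocount of 1 (0.96). With a 1.5-fold minimum 8 of the 9 were past it higher and none lower, against 63.5% and 9.01% of genes. Where the interval also had to leave out 1, the 3 laminin genes were higher and none was lower, against 41.1% and 3.47%. With TMM only LanB2 of the 9 was past 2-fold higher (log2 fold 1.49) and none was lower, against 12.8% and 14.7% of genes. The same held with RLE (log2 fold 1.44 for LanB2), against 11.3% and 15.4%. Over the 9 genes the log2 fold had a median of 0.93, beside 0.89 for all 7577 genes. With vkg included at its fitted value the median over the 10 genes was 1.03, a value that depends on the pseudocount. In the class with a mean from 100 to 1000 RPM 30.6% of genes were past 2-fold higher and 3.59% lower. Of the 6 described genes in it, the 3 laminin genes were higher and none was lower.

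**Figure D3:**
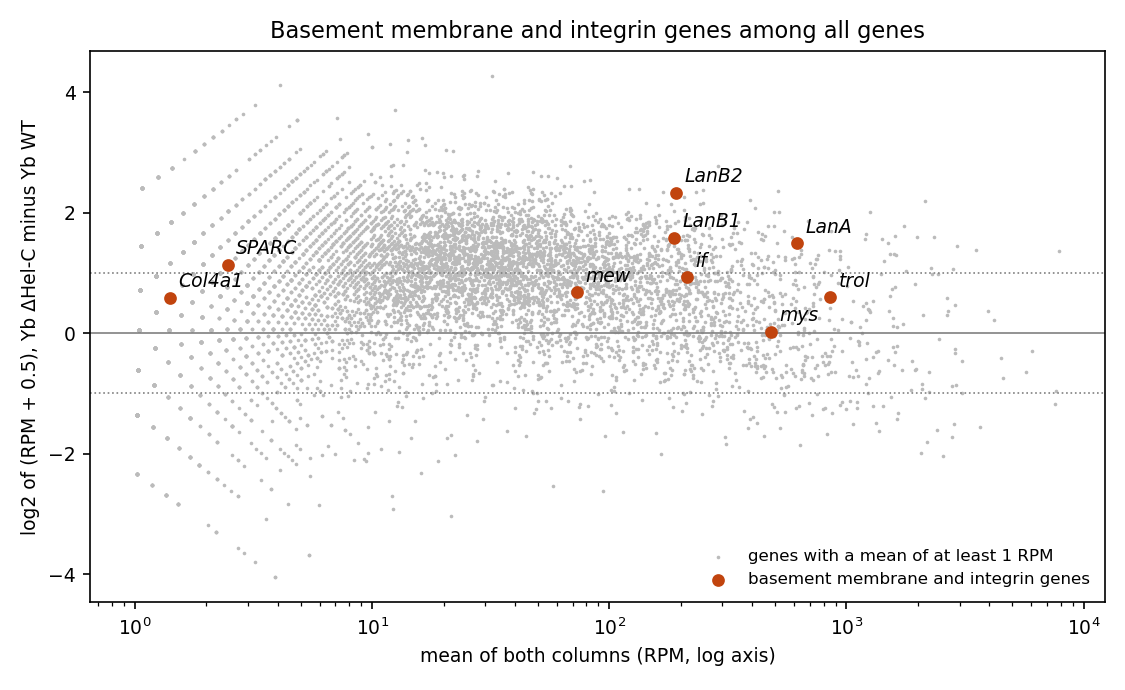
Log2 of (RPM + 0.5) in Yb ΔHel-C minus that in Yb WT against the mean of both columns (RPM, log axis) for 7577 genes, with dotted lines at 2-fold either way. LanB2 at 2.33 lies near the upper edge of genes of its level and mys at 0.03 in the lower part of them, while Col4a1 and SPARC lie among rows of a few reads.

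Ratios between genes within a column do not depend on the scaling, and the contrast of laminin with integrin genes in them was chosen after the data were seen. Laminin genes had 1.77 reads per integrin read in Yb ΔHel-C and 0.708 in Yb WT, a relative change of 2.50 (interval 2.30 to 2.73). Against trol the laminin genes had 1.47 and 0.706 reads per read, a relative change of 2.08 (1.91 to 2.26). Against all gene rows outside the 10, the relative change was 2.56 for laminin genes (2.41 to 2.72), 1.23 for trol (1.16 to 1.31) and 1.02 for integrin genes (0.965 to 1.09). These intervals cover counting error only, so the spread between libraries is not in them.

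Between partners of the same complex, some proportions differed between the columns and others did not detectably. Pairs of unrelated genes were not examined, so whether such differences are particular to partners was not tested. The proportion of LanB1 to LanA reads was 0.307 in Yb ΔHel-C and 0.288 in Yb WT, a relative change of 1.07 (0.910 to 1.25), not detectable at this depth. That of LanB2 to LanA was 0.349 and 0.194, a relative change of 1.80 (1.51 to 2.16), and that of LanB2 to LanB1 was 1.14 and 0.674, a relative change of 1.69 (1.36 to 2.09). Among the integrins, if had 0.571 reads per mys read in Yb ΔHel-C and 0.306 in Yb WT, a relative change of 1.87 (1.62 to 2.15). The alpha chain gene mew had 0.186 and 0.118 reads per mys read, a relative change of 1.58 (1.27 to 1.96). The difference between the alpha chain genes if and mew was not detectable, with a relative change of 1.18 (0.936 to 1.497).

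Of the summed reads of the 10 genes, laminin genes made up 44.4% in Yb ΔHel-C and 26.1% in Yb WT, and integrin genes 25.1% and 36.9%. The share of mys alone was 14.3% in Yb ΔHel-C and 25.9% in Yb WT, and that of trol 30.3% and 36.9%. LanA held 26.8% and 17.6%, LanB2 9.37% and 3.42%, and LanB1 8.24% and 5.07%. The share of if was 8.15% and 7.91%, and that of mew 2.65% and 3.05%. The laminin genes together thus held the largest share of the reads in Yb ΔHel-C, and trol alone or the integrin genes together each held more than them in Yb WT.

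**Figure D4:**
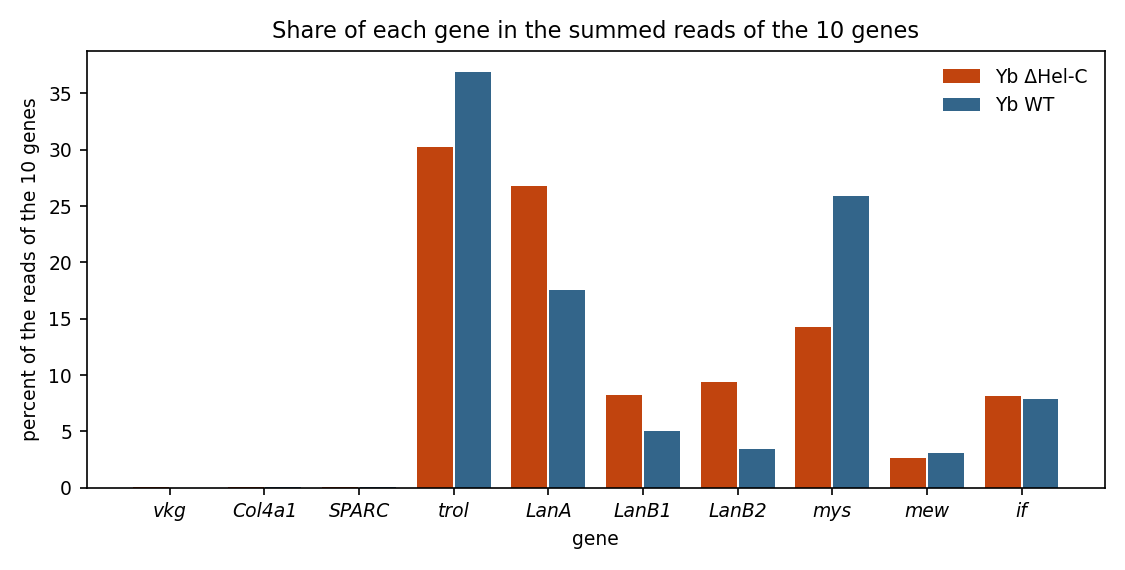
Percent of the summed reads of the 10 genes that lies on each gene, with Yb ΔHel-C left of Yb WT. The 3 laminin bars are taller in Yb ΔHel-C (together 44.4% against 26.1%) and those of trol and mys shorter, and the collagen IV genes and SPARC are too low to be seen.

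Levels of different genes were compared per kb of the annotated gene span, introns included, since exon lengths were not used here. Orders by this measure therefore depend on span, and trol, with the most reads in both columns, has the longest (75.0 kb). In Yb ΔHel-C LanA was highest at 64.3 RPM per kb (61.8 to 66.8), followed by mys at 56.6 (53.6 to 59.7), LanB2 at 35.2 (32.9 to 37.6) and LanB1 at 30.04 (27.98 to 32.2). Below them came trol at 13.8, if at 8.88, mew at 2.05, SPARC at 1.29, Col4a1 at 0.233 and vkg at 0.0889 RPM per kb. In Yb WT mys was highest at 55.5 RPM per kb (52.7 to 58.5), followed by LanA at 22.8 (21.4 to 24.3), LanB1 at 10.01 (8.86 to 11.3), trol at 9.08 (8.69 to 9.49) and LanB2 at 6.94 (5.98 to 8.01). There if stood at 4.67, mew at 1.27, SPARC at 0.491 and Col4a1 at 0.132 RPM per kb, and vkg had no read. Neighbours in these orders whose intervals overlap are mew and SPARC, and Col4a1 and vkg, in both columns, and LanB1 and trol, and SPARC and Col4a1, in Yb WT. The intervals cover counting error only, so they do not show that the rest of an order would hold per kb of exon. Of the 13881 gene rows with a span, 3.36% had a higher level per kb than LanA in Yb ΔHel-C and 6.07% in Yb WT, and for mys these shares were 3.91% and 2.43%. For mew, whose span of 44.1 kb is the second longest after the 75.0 kb of trol, 42.4% and 41.4% of rows were higher.

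Other genes of the same system were counted by the same rule, against the same shares of all genes (44.9% past 2-fold higher and 4.98% lower). On the list of other basement membrane and extracellular matrix genes 25 of 26 names had a row and 19 a mean of at least 1 RPM. Of these 19 genes, 5 were past 2-fold higher, a smaller share than the 44.9% of all genes, and 1 was lower, with a median log2 fold of 0.64 that turned with TMM (-0.126) and RLE (-0.171). The higher ones were Loxl1, a lysyl oxidase gene for crosslinking of matrix proteins (64 reads in Yb ΔHel-C and 11 in Yb WT, 6.13-fold, 3.21 to 12.9), the metalloproteinase gene Mmp1 (3.04-fold, 2.05 to 4.61), Timp, for an inhibitor of such proteinases (3.45-fold, 2.97 to 4.01), and the glypican genes dally (2.72-fold, 2.14 to 3.48) and dlp (2.28-fold, 1.98 to 2.64). Of these 5, Loxl1 alone was past 2-fold with TMM (log2 fold 1.68). The 1 gene past 2-fold lower was Ndg, which encodes nidogen, the linker between laminin and collagen IV networks. It had 3 reads in Yb ΔHel-C and 8 in Yb WT, a ratio of 0.395 (0.0675 to 1.65) whose interval includes 1. The second laminin alpha chain gene, wb, had 20 reads in Yb ΔHel-C and 24 in Yb WT, a ratio of 0.878 (0.460 to 1.66), set against 2558 and 958 reads on LanA. The row with the most reads was kug, for an atypical cadherin at the basal side of follicle cells, at 823 RPM in Yb ΔHel-C and 953 RPM in Yb WT (ratio 0.863, 0.816 to 0.912, and lower with the other scalings). The laminin receptor gene dystroglycan, Dg, had 762 RPM in Yb ΔHel-C and 432 RPM in Yb WT, 1.77-fold (1.65 to 1.89), with a log2 fold of -0.023 under TMM.

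On the list of collagen processing and secretion genes all 27 names had a mean of at least 1 RPM. Of these, 14 were past 2-fold higher and none lower, near the 44.9% and 4.98% of all genes, with a median log2 fold of 1.04 (0.20 with TMM and 0.15 with RLE). PH4alphaEFB, the prolyl hydroxylase of collagen, had 80.6 RPM in Yb ΔHel-C and 14.9 RPM in Yb WT, 5.41-fold higher (3.91 to 7.66). Sec23, a subunit of the COPII coat that carries cargo out of the endoplasmic reticulum, had 78.1 and 15.2 RPM, 5.13-fold higher (3.71 to 7.24). These 2 were the genes of the list past 2-fold with TMM as well (log2 folds 1.57 and 1.49). The chaperone gene Hsc70-3 was at 667 and 213 RPM, 3.13-fold higher (2.86 to 3.43). Sec16, which organises the sites where that coat forms, was at 469 and 576 RPM, a ratio of 0.814 (0.757 to 0.875), past 2-fold lower with TMM (log2 fold -1.14).

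On the list of other integrin subunits and adhesion proteins all 41 names had a row and 35 a mean of at least 1 RPM. Of these, 15 were past 2-fold higher and none lower, near the 44.9% and 4.98% of all genes, with a median log2 fold of 0.81 that turned with TMM (-0.028) and RLE (-0.078). With TMM 5 of the 35 were past 2-fold higher and 4 lower, against 12.8% and 14.7% of all genes. The one with the most reads among those lower with TMM was wech, for a protein of integrin attachment sites, with 907 reads in Yb ΔHel-C and 1609 in Yb WT, a ratio of 0.594 (0.547 to 0.645) and a log2 fold of -1.59 with TMM. Fak, the focal adhesion kinase gene, was 3.69-fold higher (2.81 to 4.91) and Fit1, a kindlin gene, 4.34-fold higher (3.20 to 5.97). The tensin gene by was 4.17-fold higher (2.67 to 6.76) and Ced-12, which acts with a Rac exchange factor, 3.92-fold higher (2.79 to 5.63). The talin gene rhea, which links integrins to actin, had 197 RPM in Yb ΔHel-C and 105 RPM in Yb WT, 1.87-fold (1.62 to 2.15), and Ilk, for an adhesion scaffold, had 113 and 64.3 RPM, 1.76-fold (1.46 to 2.12). With TMM their log2 folds were 0.058 and -0.028. The rows with the most reads, the kinase gene Src64B (1071 and 1185 RPM, ratio 0.903, 0.860 to 0.948) and the GTPase gene Rac1 (1068 and 1172 RPM, ratio 0.911, 0.868 to 0.957), were a little lower, and lower still with the other scalings.

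**Figure D5:**
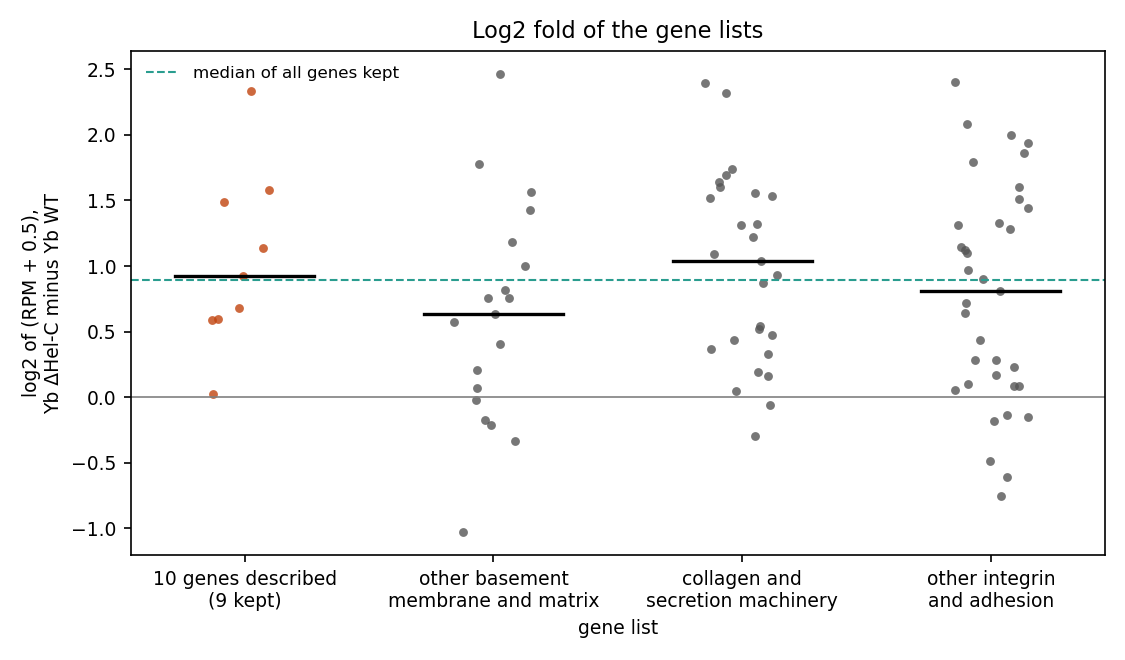
Log2 of (RPM + 0.5) in Yb ΔHel-C minus that in Yb WT for the genes of each list with a mean of at least 1 RPM, 1 point per gene, with a black line at the list's median and a dashed line at the median of all 7577 genes. The medians, 0.93, 0.64, 1.04 and 0.81 from left to right, lie near the 0.89 of all genes, and each list spans from near or below 0 to above 2.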

How the data were processed

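RNAs purified with Flag-tagged Piwi were deposited as 1 table of gene and transposon rows, with a single value column for each group. The values the authors deposited are in RPM, as judged from the values, since the file header names no unit. Every value above 0 (100%) was a whole multiple of 1 read within 0.01 read, so whole reads were recovered. BDGP6, dm6, STAR and HTSeq are listed, without role or version, per the submitters' processing notes. No source used here says whether the 2 libraries of a group were pooled or how strand and reads with several matches were treated.

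With 1 column per group no test of the conditions was possible and none was run. From the recovered reads came ratios of RPM with exact conditional (Clopper-Pearson) 95% intervals, Poisson intervals of levels, and conditional odds ratios between genes (scipy 1.17.1). Against all other gene rows, that total was taken as fixed. Folds used a pseudocount of 0.5 RPM, a mean of at least 1 RPM and a minimum of 2-fold. Alternatives were TMM and RLE factors (edgeR 4.0.16), scaling to gene reads, pseudocounts of 0.1 and 1, a 1.5-fold minimum and other filters. The interval and fold steps were checked on simulated independent Poisson counts. That checks the computation only, and cannot show whether the intervals hold for these reads. Gene spans come from the RefSeq annotation of Release 6, which matched 13881 of 13931 rows by symbol or synonym. All 10 genes are named, and from each further list the 2 with the highest mean, up to 4 past 2-fold also with TMM, and Ndg, wb, rhea and Ilk. The other named genes were chosen after their values were seen. The genes and lists were chosen with earlier results of these data known.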

Additional observations from a re-analysis of the deposited data

How the results depend on the processing

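Of the 10 genes, 4 were past 2-fold higher on the authors' totals (44.9% of all genes), 1 with TMM (12.8%), 1 with RLE (11.3%) and 8 with a 1.5-fold minimum (63.5%). With gene reads (32.1% of all genes) and with a pseudocount of 1 (42.6%) there were 3, without SPARC. With no filter there were 5, vkg included (26.8%). With the further condition that the interval leaves out 1 they were the 3 laminin genes (41.1%). No gene of the 10 was past 2-fold lower under any alternative, against 2.9% to 15.4% of all genes. The median log2 fold over the 9 genes was 0.93 on the authors' totals, 0.63 with gene reads, 0.085 with TMM and 0.035 with RLE. The ratio of their summed reads was 1.85 on the authors' totals, 1.502 with gene reads, 1.03 with TMM and 0.995 with RLE, which turned its direction. The sums without trol (2.04) and without LanA (1.64), and those over laminin and over integrin genes, were chosen after the data were seen. The laminin sum, at 3.15, gave 2.56 with gene reads, 1.75 with TMM and 1.69 with RLE. The integrin sum, at 1.26, gave 1.02 with gene reads and turned with TMM (0.701) and RLE (0.677). Pseudocounts of 0.1 and 1 left all 10 log2 folds above 0 and inside their intervals. TMM and RLE each put 4 of the 10 below 0, and scaling to gene reads put 1 below 0.

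Over all 7577 genes, 3403 were past 2-fold higher and 377 lower. TMM gave 968 and 1117, RLE 857 and 1170, and a 1.5-fold minimum 683 lower. No filter gave 743 lower among 13931 genes, and 1 RPM in both columns gave 202 lower. On the list of other basement membrane and matrix genes the counts of higher and lower genes were 5 and 1, with TMM 1 and 3, with RLE 1 and 4, and with a 1.5-fold minimum 10 higher. On the collagen and secretion list they were 14 and 0, and with TMM and with RLE 2 and 1. On the integrin and adhesion list they were 15 and 0, with TMM 5 and 4, with RLE 4 and 6, with gene reads 1 lower, and with a 1.5-fold minimum 2 lower. Of all genes, 44.9% were higher and 4.98% lower on the authors' totals. With TMM these shares were 12.8% and 14.7%, and with RLE 11.3% and 15.4%. With gene reads 7.13% of all genes were lower, and with a 1.5-fold minimum 63.5% were higher and 9.01% lower. The scalings differ by construction in what they take as unchanged, and no value here decides between them.

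No paired analysis was possible because the table has 1 column per group, and leaving out a replicate was not run for the same reason. Levels per kb of exon or transcript were not run. Depth limits vkg, Col4a1 and SPARC, which had 10 reads or fewer in each column.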

Other observations

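Genes within 1000 bases of the 10 genes were examined after the data were seen. The annotation holds 21 of them, of which 19 had a row, and 16 had a mean of at least 1 RPM. Of these 16, 10 were past 2-fold higher and 1 lower on the authors' totals, against 44.9% and 4.98% of all genes. Most of the 16 averaged 10 to 100 RPM, a class in which 54.9% of genes were higher and 1.31% lower. Beside the laminin genes 4 of 5 were higher and beside the other genes 6 of 11, a difference that was not tested. CG7115, at 379 bases from LanB1, had 254 reads in Yb ΔHel-C and 56 in Yb WT (4.78-fold, 3.57 to 6.51). CG3335, at 256 bases from LanB2, had 68 and 16 reads (4.48-fold, 2.57 to 8.28), and Tmc, at 912 bases on the other side, 770 and 260 (3.12-fold, 2.71 to 3.61). CG8219, at 54 bases from LanA, had 11 reads and 1 read. Cdc14, at 734 bases from LanB1, was under 2-fold (167 and 123 reads, 1.43-fold, 1.13 to 1.82). Beside other genes, comt, at 530 bases from mew, had 50 and 13 reads (4.05-fold, 2.17 to 8.14), and boi, at 416 bases from trol, had 113 and 39 (3.05-fold, 2.11 to 4.52). The 1 neighbour past 2-fold lower was CG32639, which overlaps mew (ratio 0.162, 0.0178 to 0.716). Neither neighbour of if was past 2-fold: goe had a ratio of 1.86 (1.58 to 2.19) and mRpL22 one of 0.632 (0.189 to 1.92).

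Genes with reads also stood directly beside vkg and SPARC, which had few, but not beside Col4a1. The annotated neighbours of Col4a1 within 1000 bases, CG14042 and SP555, both at 429 bases, were listed at 0 in both columns. SelT, at 16 bases from vkg, had 89 reads in Yb ΔHel-C and 32 in Yb WT, against 4 and 0 on vkg itself. His2Av and Rb97D, at 17 and 133 bases from SPARC, had 88 and 160 reads in Yb ΔHel-C and 30 and 187 in Yb WT, against 10 and 4 on SPARC. At 208 bases from mys, fs(1)h had 4746 reads in Yb ΔHel-C and 4670 in Yb WT, a ratio of 1.07 (1.03 to 1.12), while Upf2, at 6 bases on the other side, had 190 and 87 reads, a ratio of 2.30 (1.78 to 3.00).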
